A study of Mus musculus with 14 samples.

Results

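Genes used to mark fibroblasts and pericytes were followed in bulk RNA-seq of mouse mammary tumors. They are *Acta2*, *Tagln*, *Postn*, *Pdgfra*, *Pdgfrb*, *Fap*, *Thy1*, *S100a4*, *Dcn* and *Lum*, chosen by symbol as markers, and each of the 10 was found as 1 row among the 56414 genes listed. M/D-driven tumors arose in C57Bl/6 female mice of 6 to 9 weeks that received a 50 mg pellet releasing MPA (medroxyprogesterone acetate, a progestin) over 90 days and 6 gavages of 200 µL of the carcinogen DMBA at 5 mg per mL. AT3 tumors grew from 1000000 cells of AT3, a transplantable C57Bl/6 mammary carcinoma cell line, injected under the skin, with no MPA or DMBA given in the labels. In both models, tumors reaching 0.25 cm2 were left untreated (4 M/D-driven, 3 AT3) or exposed to NAM (nicotinamide, a form of vitamin B3) at 0.5% in the drinking water for 10 days (4 M/D-driven, 3 AT3). M/D-driven tumors develop from the host's own mammary gland, whereas AT3 tumors come from a single cell line outside the gland, so model, exposure to MPA and DMBA, site and experiment number cannot be told apart.

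Fibroblasts build the collagen-rich matrix of a tumor, and pericytes wrap capillaries. Upon activation, fibroblasts can take up contractile fibers and are then called myofibroblasts. The products of *Acta2* (smooth muscle actin) and *Tagln* (transgelin, which binds actin) belong to these fibers, and are also abundant in smooth muscle and in the myoepithelial cells that squeeze milk out of mammary ducts. *Pdgfra* and *Pdgfrb* encode receptors for platelet-derived growth factors, the latter being typical of pericytes. *Fap* encodes a cell surface protease of activated fibroblasts, *Thy1* a surface protein found on fibroblasts and on mouse T cells, and *S100a4* a calcium-binding protein that leukocytes also make. *Postn* encodes periostin, a matrix protein of remodeling tissue, and *Dcn* and *Lum* encode decorin and lumican, small leucine-rich proteoglycans that bind collagen fibrils. In a bulk sample, fewer cells of a type and less RNA per cell cannot be told apart.

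Each tumor gave 1 library of 40936868 to 84178009 reads, and values are normalized counts (reads divided by a size factor for sequencing depth). NAM-treated M/D-driven tumor 1, from experiment 2 when the 7 others were from experiment 1, stood apart. Its normalized counts summed to 8238 over 10 epithelial markers and to 5059 over 10 myoepithelial markers, against at least 122309 and 129945 in the other M/D-driven tumors. It was the lowest of the 8 M/D-driven tumors for 27.3% of all genes tested and for 5 of the 10 fibroblast and pericyte genes. It was also the highest for 28.1% of all genes tested, and for 0 of the 10.

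Members of the contractile program are classic targets of SRF (serum response factor), which binds the CArG box, made of CC, 6 bases that are A or T, and GG. Among the 10 genes, *Acta2* varied most over M/D-driven tumors, and its promoter is shown beside those of *Myl9* (myosin light chain) and *Cnn2* (calponin 2), from a list of 19 other contractile genes. The 200 bases before the start site are given 5′ to 3′ from RefSeq on GRCm38.p6 (the assembly of mm10), with CArG boxes in capitals, perfect or with 1 other base among the 6, an allowance made after the sequences were seen.
Acta2 (chr19:34255374-34255573, minus strand): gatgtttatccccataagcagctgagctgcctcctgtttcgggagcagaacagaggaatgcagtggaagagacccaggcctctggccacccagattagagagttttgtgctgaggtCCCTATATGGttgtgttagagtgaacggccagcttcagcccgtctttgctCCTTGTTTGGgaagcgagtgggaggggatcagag
Myl9 (chr2:156775264-156775463, plus strand): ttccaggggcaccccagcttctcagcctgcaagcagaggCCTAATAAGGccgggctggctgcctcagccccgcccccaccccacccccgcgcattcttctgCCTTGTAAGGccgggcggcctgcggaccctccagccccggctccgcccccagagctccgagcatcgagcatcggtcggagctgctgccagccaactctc
Cnn2 (chr10:79988400-79988599, plus strand): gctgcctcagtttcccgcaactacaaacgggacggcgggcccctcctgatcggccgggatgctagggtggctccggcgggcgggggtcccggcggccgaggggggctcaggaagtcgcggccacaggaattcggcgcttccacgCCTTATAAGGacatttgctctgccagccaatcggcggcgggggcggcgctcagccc

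The pattern reads the same on both strands. A perfect CArG box was held by 1.63% of the 32851 promoter windows of 300 bases in the table, and one allowing 1 other base by 9.98%. In *Acta2*, the matches began 84 and 34 bases before the start, each with 1 other base, and none was perfect. *Myl9* held a perfect box beginning 161 bases before the start, and *Cnn2* 1 beginning 56 bases before it. Of the 10 fibroblast and pericyte genes, 4 had a promoter in the table (*Acta2*, *Pdgfra*, *S100a4* and *Postn*), and *Acta2* alone among these 4 held a match. Among the contractile genes, 16 of 19 had a promoter in the table, and 3 held a perfect box, *Srf* being the other one. A match in letters is not a binding site, and no binding was measured here.

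On mm10, *Acta2* lies on chromosome 19 (34240336 to 34255373), *Tagln* and *Thy1* on chromosome 9 (45929628 to 45936058 and 44043384 to 44048579), and *Postn* and *S100a4* on chromosome 3 (54361107 to 54391041 and 90603763 to 90606044). *Pdgfra* is found on chromosome 5 (75152291 to 75198204), *Pdgfrb* on chromosome 18 (61045144 to 61085067), and *Fap* on chromosome 2 (62500936 to 62574021). *Dcn* and *Lum* are neighbors on chromosome 10 (97479500 to 97518155 and 97565501 to 97572703). GENCODE places *Pcsk7* and an antisense gene over *Tagln* on the opposite strand, a protein-coding model on the same strand over *S100a4*, and over *Pdgfra* a microRNA on the same strand and a pair of models on the opposite one. The row of *Pdgfra* also carries the name of the microRNA. Reads of such overlapping genes may have been split or shared, as may those of *Acta2* and the near-identical actins *Actg2*, *Acta1* and *Actc1*.

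On a scale common to both models and per kilobase of the longest GENCODE transcript, which approximates the regions counted, *Acta2* had the highest mean level in untreated M/D-driven tumors (30201), followed by *Tagln* (16001), *S100a4* (11190), *Postn* (8094), *Thy1* (6761), *Dcn* (4017), *Lum* (1455), *Pdgfrb* (421), *Fap* (143) and *Pdgfra* (111). Neighbors in this order overlapped in range over the 4 tumors, except *Lum* with *Pdgfrb* and *Pdgfrb* with *Fap*. In untreated AT3 tumors, *Postn* came first (6633 per kilobase), before *S100a4* (5161), *Tagln* (3603), *Thy1* (2265) and *Acta2* (2088). *Postn*, *S100a4* and *Tagln* overlapped as neighbors, as did *Thy1* with *Acta2* and *Pdgfrb* (92.8) with *Fap* (66.7). *Pdgfra* was last in untreated tumors of both models, at 28.3 per kilobase in AT3 tumors.

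*Acta2* ranged over 95.2-fold among M/D-driven tumors and over 1.45-fold among AT3 tumors. Its normalized count as deposited was 19528, 181216, 37638 and 35102 in untreated M/D-driven tumors 1 to 4, and 4173, 20418, 153269 and 397128 in NAM-treated tumors 1 to 4. Untreated tumor 2 and NAM-treated tumors 3 and 4 were high, NAM-treated tumor 1 was lowest, and the groups overlapped. Group means were 68371 ± 75655 (SD, n = 4) for untreated and 143747 ± 181644 (SD, n = 4) for NAM-treated tumors. In NAM-treated tumor 4, *Acta2* alone took 0.762% of all reads. AT3 tumors held 3048, 4430 and 3371 when untreated, and 3346, 4238 and 3584 with NAM, so that all 6 lay close together.

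Among M/D-driven tumors, *Tagln* followed *Acta2* from tumor to tumor. Untreated M/D-driven tumors 1 to 4 held 12104, 59511, 20111 and 22105, and NAM-treated tumors 1 to 4 held 3579, 19859, 32873 and 100212. The highest 3 tumors were those highest in *Acta2*, and NAM-treated tumor 1 was again lowest. Across the 8 M/D-driven tumors, log2 values of *Acta2* and *Tagln* correlated with a Pearson's r of 0.97 (exact permutation p = 5e-05, adjusted p = 0.0022 over 45 pairs of the 10 genes) and a Spearman's rho of 0.98 (exact permutation p = 0.0004, adjusted p = 0.018). The correlation was 0.91 without the 2 tumors farthest from the median of *Acta2*, 0.97 on deviations from the group means, and 0.95 without the tumor of experiment 2. The ratio of *Acta2* to *Tagln* still moved from 1.03 in NAM-treated tumor 2 to 4.66 in NAM-treated tumor 3. In AT3 tumors, *Tagln* stood at 4697, 4179 and 5726 without and at 3454, 3863 and 2573 with NAM. The treated tumors all lay below the untreated ones. *Tagln* did not follow *Acta2* there, with a Pearson's r of −0.17 (exact permutation p = 0.76) and a Spearman's rho of −0.2 (exact permutation p = 0.71).

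**Figure D1:**
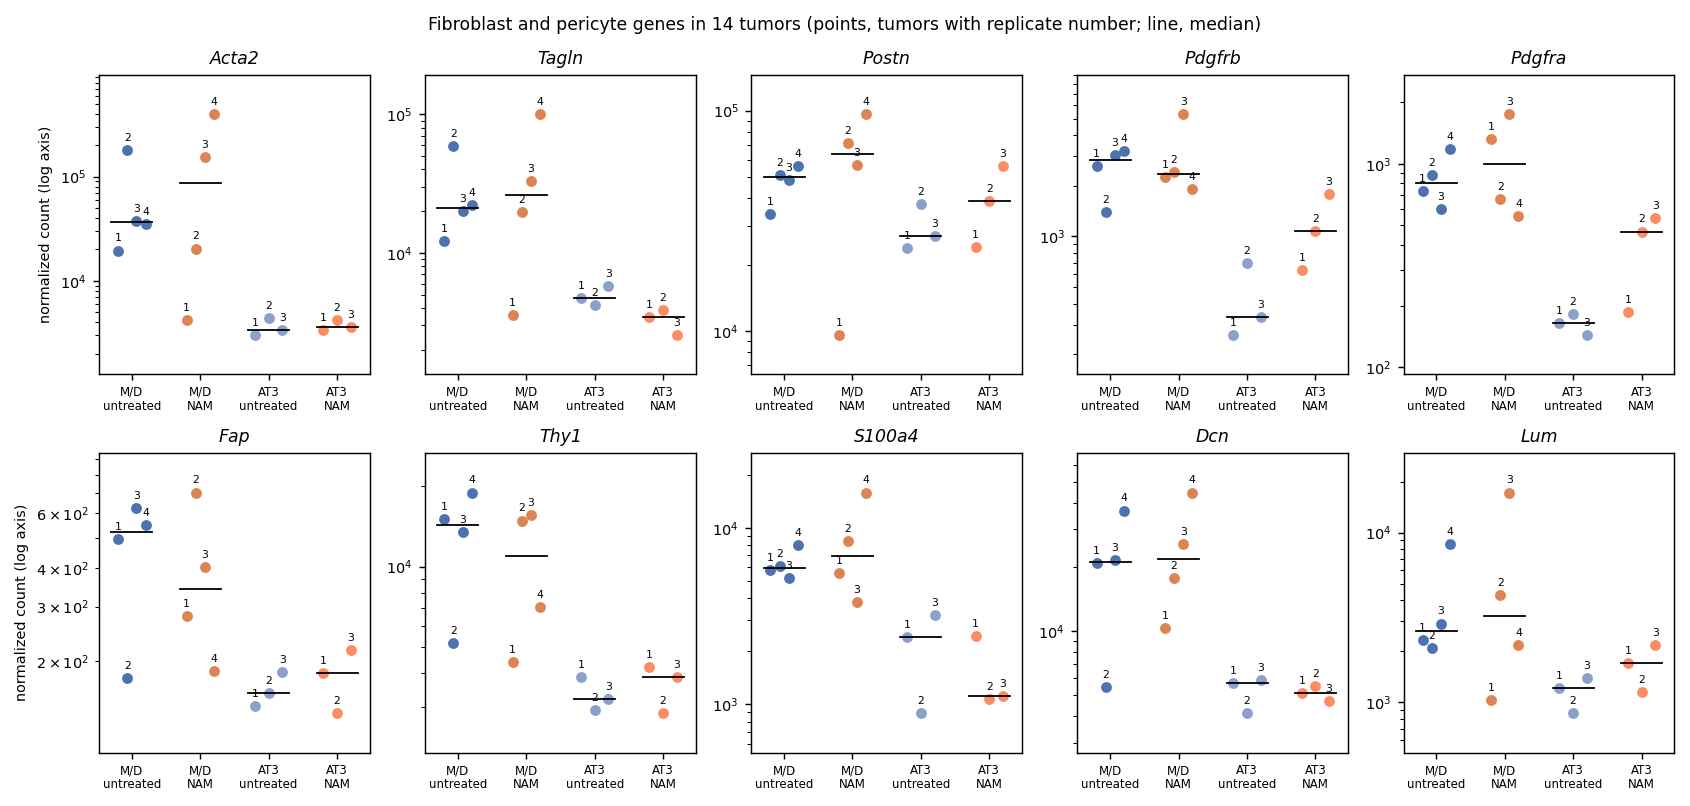
Normalized counts (log axis) of the 10 fibroblast and pericyte genes in the 14 tumors, in 4 columns by model and treatment, as deposited and not on the common scale. Points are single tumors with their replicate number and lines are medians. *Acta2* spans 4173 to 397128 among M/D-driven tumors and 3048 to 4430 among AT3 tumors.

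Among the 19 other contractile genes, 10 also had their 3 highest M/D-driven values in untreated tumor 2 and NAM-treated tumors 3 and 4, against 5.79% of all 21700 genes tested. This comparison was set up after the values of *Acta2* were seen and carries no test. Those 10 included *Myh11* (smooth muscle myosin), at 3375, 4567 and 32181 in the 3 tumors and 80.4 to 1145 in the 5 others. *Cnn1* (calponin 1) was at 9194, 4692 and 48888 against 236 to 1471 in the others. For *Myl9*, whose promoter is printed above, the 3 tumors held 28247, 26347 and 88113, and the others 1396 to 9378. *Cnn2*, also printed, was not among the 10. *Cnn1*, *Mylk*, *Lmod1*, *Synpo2*, *Cald1*, *Flna* and *Mrtfb* were, and their promoters held no CArG match, perfect or with 1 other base. *Oxtr*, the oxytocin receptor listed as a myoepithelial marker, had the same 3 tumors on top (19577, 7191 and 46044), as did the luminal keratins *Krt8*, *Krt18* and *Krt19*. This was so for 2 of 10 myoepithelial and 3 of 10 epithelial markers. *Krt14*, the most abundant myoepithelial marker, had another order, with 31475, 23904 and 76241 in the 3 tumors, 424 in NAM-treated tumor 1 and 116260 to 752028 in the 4 others. None of 20 other fibroblast genes, 11 other pericyte genes or 9 skeletal muscle markers did. NAM-treated tumor 4 was highest for 17 of the 19 contractile genes and for 18.8% of all genes tested.

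Of 3 marker sums, the epithelial one was highest in the same 3 tumors. Summed over 9 skeletal muscle markers, NAM-treated M/D-driven tumor 4 held 308327, NAM-treated tumor 3 held 1567 and untreated tumor 2 held 1110, the range over all 8 M/D-driven tumors being 293 to 308327. Epithelial markers summed to 398210, 240704 and 204623 in untreated tumor 2 and NAM-treated tumors 3 and 4, and to 8238 to 168826 in the 5 others. Over the 10 myoepithelial markers, those 3 tumors gave 164756, 129945 and 329403. NAM-treated tumor 1 gave 5059, and all the remaining M/D-driven tumors were higher than the 3, at 407001 to 1300913. The part of these cell types in the values of *Acta2* and *Tagln* was not tested. *Myocd*, a cofactor of SRF in smooth muscle, had another order, with 137, 120 and 77.3 in untreated tumors 1, 3 and 4 and 4.35 to 12.2 in the 5 others.

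**Figure D2:**
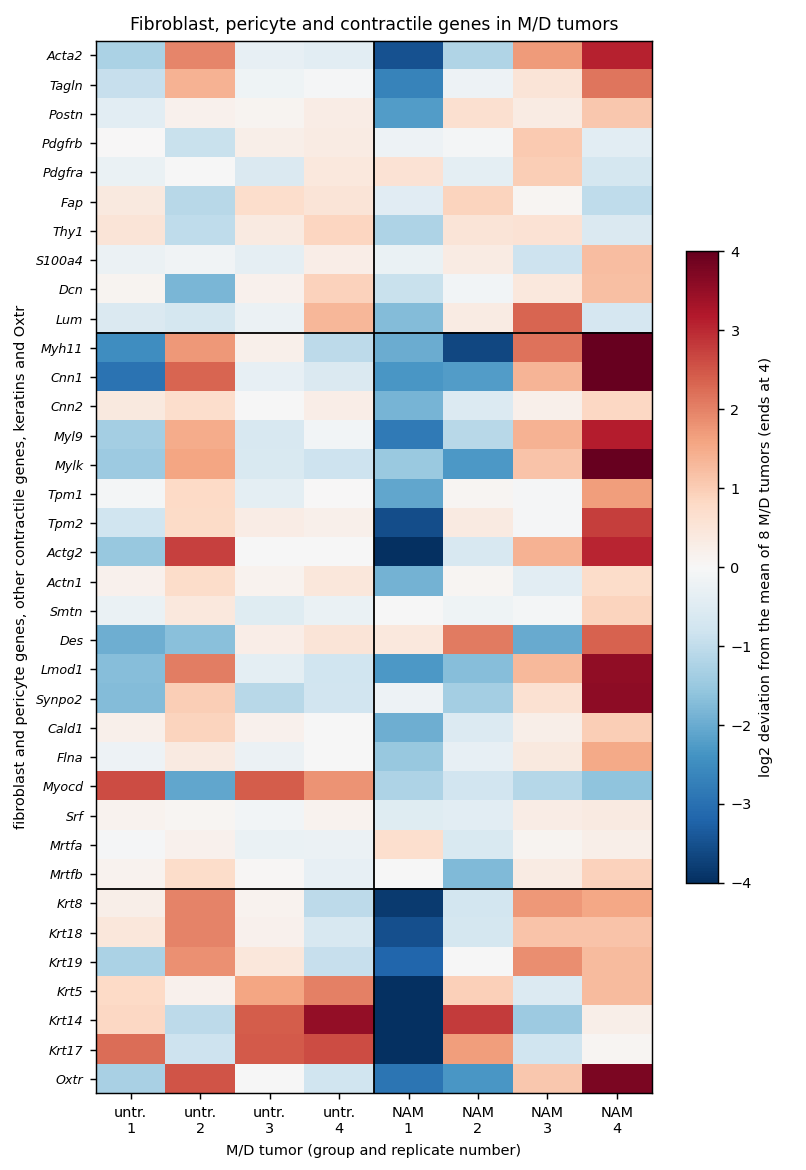
Log2 deviation of each gene (row) from its mean over 8 M/D-driven tumors (columns), with colors ending at 4 in either direction. Rows are the 10 fibroblast and pericyte genes, 19 other contractile genes, then keratins and *Oxtr*. *Acta2*, *Tagln*, *Myh11*, *Cnn1* and *Myl9* are red in untreated tumor 2 and in NAM-treated tumors 3 and 4.

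The growth factor receptors were steadier in M/D-driven tumors. *Pdgfra* was at 737, 877, 599 and 1183 in untreated tumors 1 to 4 and at 1330, 675, 1752 and 553 with NAM. *Pdgfrb* had values of 2629, 1400, 3020 and 3213 without NAM and of 2245, 2426, 5304 and 1914 with it. NAM-treated tumor 3 was the highest M/D-driven tumor for both receptors, and groups overlapped.

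In AT3 tumors, both receptors were higher in NAM-treated tumors 2 and 3 than in any untreated tumor. *Pdgfra* rose from 165, 184 and 145 in untreated to 187, 465 and 544 in NAM-treated tumors 1 to 3, with no overlap but with NAM-treated tumor 1 next to untreated tumor 2. *Pdgfrb* read 262, 698 and 332 in untreated tumors, against 634, 1082 and 1781 with NAM. Untreated tumor 2 was above NAM-treated tumor 1 here, so groups overlapped.

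The surface protease gene *Fap* stood at 494, 177, 625 and 550 in untreated tumors 1 to 4 and at 281, 700, 401 and 186 with NAM. Untreated tumor 2 and NAM-treated tumor 4 were lowest. *Thy1* gave 15064, 5204, 13513 and 18899 without, and 4405, 14856, 15547 and 7055 with NAM. Its low values fell in untreated tumor 2 and in NAM-treated tumors 1 and 4, which include the lowest 2 tumors for *Fap*. *Fap* and *Thy1* gave a Pearson's r of 0.83 (exact permutation p = 0.017, adjusted p = 0.20) and a Spearman's rho of 0.55 (exact permutation p = 0.17, adjusted p = 0.59) over 8 tumors, and r was 0.77 without the 2 tumors farthest from the median of *Fap*. In AT3 tumors, *Fap* lay between 136 and 217 and *Thy1* between 2846 and 4218 over all 6, with overlapping groups.

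*S100a4* was at 5741, 6043, 5203 and 7973 in untreated M/D-driven tumors 1 to 4 and at 5529, 8410, 3805 and 15857 with NAM. The untreated values all lay within the wider range of the treated ones. Untreated AT3 tumors held 2401, 896 and 3195, against 2443, 1079 and 1123 with NAM. Untreated AT3 tumor 2 thereby joined NAM-treated tumors 2 and 3 at the low end.

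Of *Postn*, *Dcn* and *Lum*, *Postn* was the most abundant in both models. M/D-driven tumors 1 to 4 held 33983, 50956, 48645 and 55806 when untreated, and 9643, 70969, 56357 and 96290 with NAM. Apart from NAM-treated tumor 1, the treated tumors were all above the highest untreated one. In AT3 tumors, *Postn* was at 23889, 37759 and 26883 without and at 24050, 38780 and 55906 with NAM, so that both groups shared a wide range.

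The proteoglycan genes *Dcn* and *Lum* are neighbors on the chromosome but peaked in different tumors. *Dcn* was at 20896, 5451, 21482 and 36826 in untreated and at 10338, 17690, 25769 and 44740 in NAM-treated M/D-driven tumors, lowest in untreated tumor 2 and highest in NAM-treated tumor 4. *Lum* was at 2329, 2102, 2917 and 8602, and with NAM at 1035, 4298, 17236 and 2175, with its peak in NAM-treated tumor 3. The ratio of *Dcn* to *Lum* therefore went from 1.5 in NAM-treated tumor 3 to 20.6 in NAM-treated tumor 4, whereas it stayed between 2.15 and 4.78 in AT3 tumors. There, *Dcn* ranged from 4132 to 5877 and *Lum* from 868 to 2190, with overlapping groups for both.

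To ask whether NAM moved these genes in M/D-driven tumors, NAM-treated and untreated tumors were compared by limma on log2(normalized count + 1), a scale that understates changes of low genes. A gene was called when p was 0.05 or less before adjustment and the change 1.5-fold or more. Of the 10 genes, 0 were called higher and 0 lower, against 3.03% and 3.19% of the 21700 genes tested. The p before adjustment was above 0.05 for all 10, and 0 were called by the edgeR and DESeq2 tests. Their log2 fold changes ran from −0.37 for *Thy1* (standard error, SE, 0.52, limma adjusted p = 0.89) to 0.31 for *Dcn* (SE 0.64, limma adjusted p = 0.93), with a median of 0.07 beside 0.01 for all genes. No gene of the 10 had groups that did not overlap, against 4.43% of genes tested. The log2 fold change of *Acta2* was 0.04 with an SE of 1.38 (exact permutation p = 0.97), and its residual SD of 2.30 on the log2 scale was above that of 93.7% of genes. Without NAM-treated tumor 1, *Postn* was higher with NAM (log2 fold change 0.64, limma adjusted p = 0.81) and *Acta2* reached 1.21 but was not called. The part of its low epithelial markers in these values was not tested.

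Few genes of related lists were called, where 3.03% of all genes tested were called higher and 3.19% lower. Of 20 other fibroblast genes, 1 was lower with NAM in M/D-driven tumors, namely *Fbln2* (fibulin 2, log2 fold change −0.69, SE 0.29, limma adjusted p = 0.73). *Col1a1*, the most abundant of them, had −0.17 with an SE of 0.63. Of the contractile genes, *Myocd* alone was called, lower with NAM, and none of the 11 other pericyte genes passed. Among 10 other small leucine-rich proteoglycans, 1 was lower (*Chad*), as was 1 of 9 genes responsive to TGF-beta (*Skil*), whereas 0 of 4 PDGF ligands and 0 of 6 TGF-beta ligands and receptors passed. Median log2 fold changes were −0.10 for other fibroblast genes, 0.03 for contractile genes and 0.11 for pericyte genes. They were lower for proteoglycan genes (−0.48), genes responsive to TGF-beta (−0.51, 0 of 9 above 0) and PDGF ligands (−0.75, 0 of 4 above 0), and −0.13 for TGF-beta ligands and receptors. Epithelial and myoepithelial markers had −1.14 and −1.98, each with 0 of 10 above 0. NAM-treated tumor 1 had the lowest sum of PDGF ligands (2909, against at least 7424 in the other M/D-driven tumors). It was also lowest for genes responsive to TGF-beta (39754, against at least 70453). The part of this tumor in these medians was not tested.

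**Figure D3:**
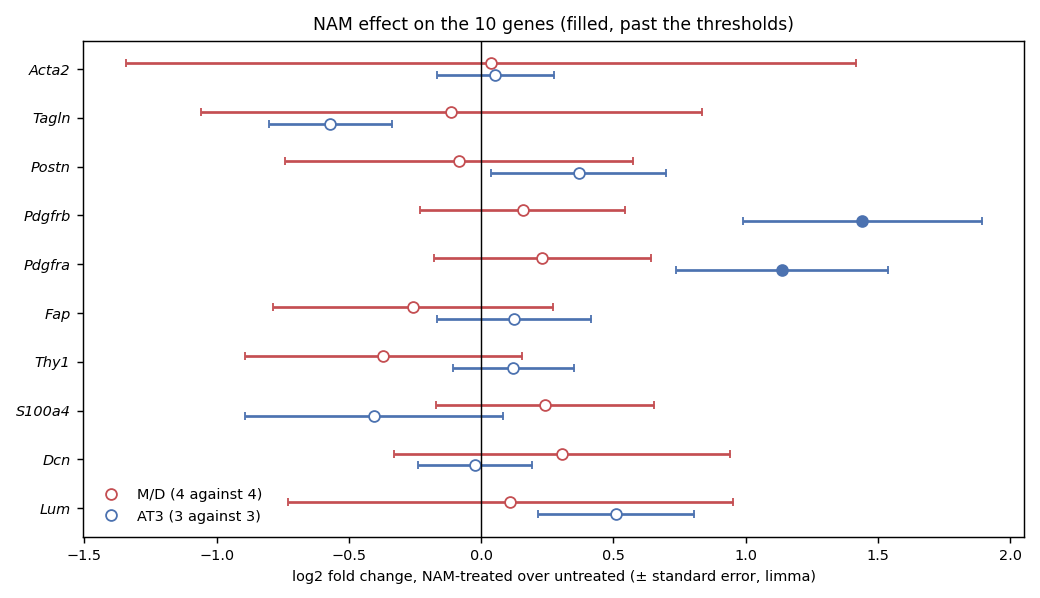
Log2 fold change of NAM-treated over untreated tumors with standard errors from limma, for M/D-driven (red) and AT3 tumors (blue). Filled points are past the thresholds. *Pdgfra* (1.14) and *Pdgfrb* (1.44) in AT3 tumors are the filled ones.

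In AT3 tumors, the same comparison called 2 of the 10 genes higher with NAM and 0 lower, against 12.2% and 10.9% of 19281 genes tested. *Pdgfrb* rose by a log2 fold change of 1.44 (SE 0.45, limma adjusted p = 0.17, exact permutation p = 0.2), from 431 ± 234 to 1166 ± 578 (SD, n = 3). *Pdgfra* rose by 1.14 (SE 0.40, limma adjusted p = 0.17, exact permutation p = 0.1), from 165 ± 19.4 to 398 ± 187 (SD, n = 3). With 3 tumors against 3, the exact permutation test cannot go below 0.1. *Tagln* had a log2 fold change of −0.57 (SE 0.23, limma adjusted p = 0.19), 1.48-fold lower and just short of the fold threshold. Its call changed with the tumors used, and *Tagln* was called lower without NAM-treated tumor 1 (−0.61), NAM-treated tumor 2 (−0.69) or untreated tumor 2 (−0.67). Without untreated tumor 2, *S100a4* was called lower too (−0.95, limma adjusted p = 0.10), as were 3310 of 18933 genes tested. Without NAM-treated tumor 2, *Lum* was called higher (0.76, limma adjusted p = 0.49), as were 979 of 19346. Groups of *Pdgfra* and *Tagln* did not overlap, as was the case for 22.6% of genes tested. The other 7 genes had log2 fold changes between −0.40 (*S100a4*) and 0.51 (*Lum*), and the median over the 10 was 0.12 beside −0.05 for all genes.

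The 2 receptor genes have long transcripts, and AT3 libraries differed in how values depended on transcript length. Over all genes with a known length, the log2 deviation of a tumor from the mean of AT3 tumors changed per doubling of length by −0.29, −0.02 and −0.30 in untreated tumors 1 to 3 and by −0.06, 0.30 and 0.37 in NAM-treated tumors 1 to 3. Longest transcripts measure 6834 bases for *Pdgfra*, 5423 for *Pdgfrb*, 5223 for *Postn* and 4692 for *Dcn*. They measure 2867 for *Fap*, 2448 for *Lum*, 2035 for *Acta2*, 1735 for *Thy1*, 1595 for *Tagln* and 498 for *S100a4*. *Postn* and *Dcn*, nearly as long as *Pdgfrb*, had log2 fold changes of 0.37 (SE 0.33) and −0.02 (SE 0.22). They differ from it in GC content, with 36.3% and 37.4% against 54.9% for *Pdgfrb* and 48.1% for *Pdgfra*. The part of length or GC content in these values was not tested gene by gene. Removing each tumor's length and GC trend brought the log2 fold change of *Pdgfra* to 0.44, which was no longer called. *Pdgfrb* was still called at 0.79, *Lum* was now called at 0.88, and *Tagln* had −0.20. *Pdgfra* was not called either without NAM-treated tumor 2 (0.96), NAM-treated tumor 3 (0.84) or untreated tumor 3 (1.05), whereas *Pdgfrb* was called whichever tumor was left out.

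**Figure D4:**
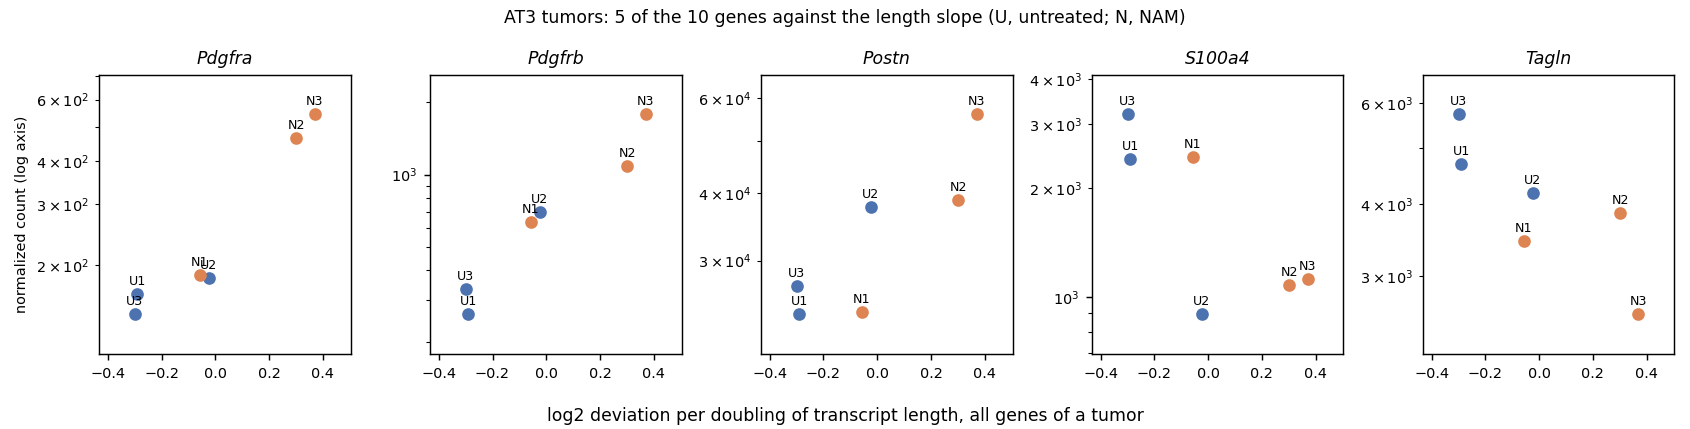
Normalized counts (log axis) of 5 of the 10 genes in the 6 AT3 tumors against the slope of each tumor's log2 deviation per doubling of transcript length over all genes. U and N with a number are untreated and NAM-treated tumors. Tumors with the highest slopes, N2 (0.30) and N3 (0.37), hold the highest *Pdgfra* and *Pdgfrb*.

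Pericyte genes other than *Pdgfrb* went both ways in AT3 tumors. Counts per list below stand against 12.2% of all genes tested called higher and 10.9% called lower. Of 11, 4 were higher with NAM, namely *Cspg4* (the NG2 proteoglycan), *Notch3* (a receptor of mural cells, log2 fold change 1.48, SE 0.50), *Abcc9* and *Mcam*, and 2 were lower, namely *Higd1b* (−1.33, SE 0.31) and *Ndufa4l2*. With the length and GC trend removed, 1 of the 4 was still called higher and 1 of the 2 lower. *Rgs5*, another pericyte gene, read 4407, 3312 and 5652 in untreated and 6455, 4718 and 4645 in NAM-treated tumors. Higher values were also called for 3 of 20 other fibroblast genes (*Fbln1*, *Mfap4* and *Loxl1*), 6 of 18 contractile genes tested (largest for *Myh11*, *Mrtfb* and *Synpo2*), 3 of 7 proteoglycan genes tested (*Fmod*, *Bgn* and *Podn*), 3 of 6 TGF-beta ligands and receptors (*Tgfbr1*, *Tgfbr3* and *Tgfbr2*), 1 of 9 genes responsive to TGF-beta (*Tgfbi*) and 0 of 4 PDGF ligands. *Myh11* was low throughout, at 5.80, 10.2 and 1.63 in untreated and 31.6, 16.9 and 21.5 in NAM-treated AT3 tumors. With the length and GC trend removed, 4 fibroblast genes, 1 contractile gene and 4 proteoglycan genes were called higher, and 1 contractile gene lower. Also higher were 1 TGF-beta receptor or ligand, 1 responsive gene and 1 PDGF ligand. Over all 16444 genes, 1297 were then called higher and 1306 lower. The median of TGF-beta ligands and receptors went from 0.82 to 0.24. Endothelial markers moved alongside, with 5 of 8 higher and 1 lower (3 and 0 with the trend removed), and their summed counts were 7756 to 8627 in untreated and 9144 to 11386 in NAM-treated AT3 tumors. The part of endothelial cells in the values of *Pdgfrb* was not tested.

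Whether NAM acted differently on the 10 genes in both models was tested by the interaction term of a fit over 14 tumors. None of the 10 passed in either direction, against 6.97% and 7.9% of 22710 genes tested. The largest term was that of *Pdgfrb*, at −1.28 (SE 0.65, limma adjusted p = 0.37), followed by *Pdgfra*, at −0.91 (limma adjusted p = 0.49). For *Pdgfrb* it passed when NAM-treated AT3 tumor 1 (−1.66), untreated AT3 tumor 2 (−1.70), NAM-treated M/D-driven tumor 3 (−1.60) or untreated M/D-driven tumor 2 (−1.55) was left out, and *Pdgfra* passed without NAM-treated AT3 tumor 1 (−1.38). No other gene of the 10 passed in any tumor's absence. With the length and GC trend removed, the terms of *Pdgfrb* and *Pdgfra* were −0.54 and −0.13, those of *Lum* (−0.65) and *Fap* (−0.62) were larger in size, and 0 of the 10 were called.

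To compare the models, all tumors were put on 1 scale by median ratios, and untreated M/D-driven tumors were set against untreated AT3 tumors. All 10 genes had a positive log2 fold change, 8 of them past the thresholds, against 30.2% of the 21560 genes tested that were higher and 26.5% that were lower. An adjusted p of at most 0.05 was reached by 6, against 27.7% of genes that did so in that direction. *Acta2* was the most different, with 61458 ± 68657 (SD, n = 4) in M/D-driven and 4249 ± 745 (SD, n = 3) in AT3 tumors on the common scale (log2 fold change 3.3, SE 0.65, limma adjusted p = 0.0035). It was followed by *Pdgfrb* (2.23, SE 0.39, adjusted p = 0.002), *Pdgfra* (1.92, SE 0.28, adjusted p = 0.00096) and *Tagln* (1.90, SE 0.47, adjusted p = 0.01). *Thy1* (1.45, adjusted p = 0.016) and *S100a4* (1.29, adjusted p = 0.028) also passed both. *Dcn* (1.34, limma adjusted p = 0.071) and *Lum* (1.14, limma adjusted p = 0.068) were called before adjustment alone. *Dcn* kept its call without untreated M/D-driven tumor 2 (1.89) and lost it without any other tumor, and *Lum* lost it without any AT3 tumor or without untreated M/D-driven tumor 3. *Fap* (0.96, limma adjusted p = 0.091) and *Postn* (0.28, limma adjusted p = 0.37) were not called, though *Fap* was without untreated M/D-driven tumor 2 (1.37). Groups did not overlap for 7 of the 10, against 54% of genes tested. The median log2 fold change of the 10 was 1.39 beside 0.04 for all genes. With the length and GC trend removed, *Pdgfra* was still called at 0.69 and *Pdgfrb* at 1.00, *Dcn* was not (1.13) and *Fap* was (1.11). The balance over all genes moved with the scale, from 6508 higher and 5715 lower to 3964 and 6521 with that trend removed, to 4712 and 8233 with upper-quartile scaling and to 8402 and 3827 with values as deposited.

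T cell markers, which bear on *Thy1*, were higher in M/D-driven tumors for 8 of 10, beside 30.2% of all genes tested. Macrophage markers were higher for 6 of 10 and lower for 1, and adipocyte markers for 8 of 8. Of myoepithelial markers, which bear on *Acta2* and *Tagln*, 8 of 10 were higher and 1 lower, with a median log2 fold change of 2.86. Epithelial markers were higher for 6 of 10, endothelial markers for 5 of 8 with 1 lower, and skeletal muscle markers for 0 of 9. Their part in the differences between models was not tested.

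Other lists of the same tissue roles were mostly higher in M/D-driven tumors, where 30.2% of all genes tested were higher and 26.5% lower. Contractile genes were higher for 16 of 19 and lower for 0, with a median log2 fold change of 2.26. In front were *Myh11* (6.68, SE 0.95), *Cnn1* (5.60, SE 1.01) and *Myocd* (4.70, SE 1.22). These were low in untreated AT3 tumors, at normalized counts of 1.63 to 10.2, 16.3 to 28.4 and 0 to 4.06. Other fibroblast genes were higher for 11 of 20, led by *Fbln1* (3.13, SE 0.60), *Fbln2* (2.78, SE 0.35) and *Gsn* (2.71, SE 0.28), while *Col1a1* had 0.51 (SE 0.72). Of 11 other pericyte genes, 4 were higher, with *Notch3* (3.51, SE 0.34) and *Cspg4* (3.02, SE 0.39) first, and 3 were lower, *Ndufa4l2* most (−2.35, SE 0.43). Proteoglycan genes were higher for 7 of 9 tested, PDGF ligands for 3 of 4, TGF-beta ligands and receptors for 5 of 6, and genes responsive to TGF-beta for 4 of 9. With the length and GC trend removed, 12 of the 16 contractile genes were still higher (median 1.22) and 1 was lower, as were 9 of the 11 fibroblast genes (median 0.60), likewise with 1 lower, and all 7 proteoglycan genes. Of the pericyte genes, 3 were then higher and 3 lower. Over all 18158 genes, 3964 were then higher and 6521 lower. The TGF-beta lists kept fewer calls, with 2 of 6 ligands and receptors higher (median 0.34) and with 2 of 9 responsive genes higher and 1 lower (median −0.0054), and 2 of 4 PDGF ligands were higher.

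The comparison was repeated in NAM-treated tumors, a choice made after the data were seen. There, 4 of the 10 genes were higher in M/D-driven tumors and 0 lower (*Acta2*, *S100a4*, *Tagln* and *Dcn*), against 15.3% and 10.1% of 21287 genes tested, and 0 had an adjusted p of at most 0.05 by limma. *Acta2* had a log2 fold change of 3.33 with an SE of 1.38. *Dcn* had 1.72 (SE 0.44) and *S100a4* 1.98 (SE 0.52), and these were the 2 genes whose groups did not overlap, against 27.8% of genes tested. For *Pdgfra* and *Pdgfrb*, the differences were 1.06 (SE 0.53) and 0.99 (SE 0.46), neither of which was called. *Postn* had −0.12, with 8653 on the common scale in M/D-driven tumor 1. Without that tumor, chosen as an alternative after the data were seen, *Postn* had 0.60 and was not called, and 5 of the 10 genes were called higher, *Thy1* (1.35) being added, against 4273 of 21136 genes. All 5 then had a limma adjusted p of at most 0.05, including *Acta2* (4.50, adjusted p = 0.019) and *Tagln* (3.27, adjusted p = 0.0091). With any other M/D-driven or any AT3 tumor left out, 2 to 4 were called, *Dcn* and *S100a4* among them each time. Over all genes, 2312 to 3429 of 21069 to 21385 were called higher in these fits. *Dcn* and *S100a4* were also the 2 genes called with the length and GC trend removed, against 1995 of 18149 genes called higher.

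**Figure D5:**
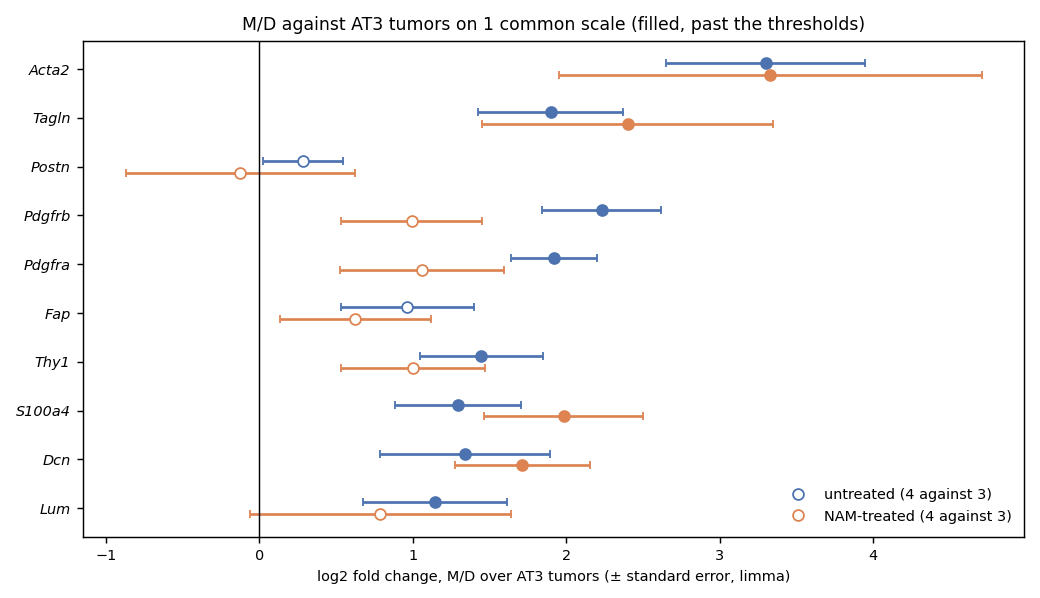
Log2 fold change of M/D-driven over AT3 tumors with standard errors from limma on the common scale, for untreated (blue) and NAM-treated tumors (orange). Filled points are past the thresholds. *Acta2* (3.3 and 3.33) is farthest from 0 in both, with the wider error bar among NAM-treated tumors.

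Over all 45 pairs of the 10 genes, 30 correlated positively among M/D-driven tumors, with a median Pearson's r of 0.33, and 23 among AT3 tumors, with a median of 0.13. *Acta2* with *Tagln* was the 1 pair at an adjusted p of at most 0.05, and no pair reached it in AT3 tumors. *Tagln* with *Postn* came next in M/D-driven tumors (Pearson's r = 0.88, exact permutation p = 0.0052, adjusted p = 0.12, and Spearman's rho = 0.69, exact permutation p = 0.069, adjusted p = 0.59), but r was 0.37 without the 2 tumors farthest from the median of *Tagln*, one of them the tumor of experiment 2. In AT3 tumors, *Pdgfra* and *Pdgfrb* gave a Pearson's r of 0.89 (exact permutation p = 0.019, adjusted p = 0.31) and a Spearman's rho of 0.89 (exact permutation p = 0.033, adjusted p = 0.5), with r at 0.77 without the 2 farthest tumors. Some pairs in M/D-driven tumors were negative without the tumor of experiment 2. *Acta2* and *Tagln* then had r of −0.88 and −0.89 with *Fap*, and −0.72 and −0.80 with *Thy1*. With *Postn*, both stayed positive (0.56 and 0.71). These values were picked after the data were seen and carry no test. Tumors of a model share their normalization, and AT3 tumors also the length trend given above.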

How the data were processed

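One mRNA library per tumor was sequenced in paired-end mode. Per the paper's methods, the authors mapped reads with STAR 2.4.0 on mm10, counted them on constitutive regions of Mouse FAST DB genes and normalized them with DESeq2, so that the deposited values are a normalized signal per gene. Median ratios of the deposited values ran from 0.975 to 1.02 within models and from 0.837 to 1.17 over both, so each model was taken as scaled apart. The setting for read strand is not given in the sources used here. Dividing by the value of 1 read gave whole reads for 100% of values (tolerance 0.1). Median ratios over all 14 tumors set the common scale. Sample titles gave the groups, and replicates are separate tumors.

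A gene was tested when at least 1 of the groups compared averaged 10 or more. Tests were made with limma 3.58.1 (R 4.3.3) with a mean-variance trend, checked on simulated data, with Benjamini-Hochberg adjustment over every gene tested. Exact permutation tests were two-sided. The paper does not state whether its threshold was on adjusted p values, and it was taken as unadjusted. Tried besides were pseudocounts of 0.5 and 5, other filters (none, or 50), TMM and upper-quartile scaling, deposited scaling, edgeR 4.0.16 and DESeq2 1.42.0 on recovered reads, the replicate block, removal of length and GC trends (spline, 4 degrees of freedom), all 14 tumors in 1 fit, and leaving out each tumor.

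The 10 genes and the gene lists were chosen with earlier results of these data known. Among genes outside the 10, the rule named, per list and comparison, the most abundant and up to 3 called genes with the largest change. *Myl9*, *Cnn2*, *Srf*, *Oxtr*, *Krt8*, *Krt14*, *Krt18*, *Krt19*, *Rgs5*, *Abcc9*, *Ndufa4l2* in AT3 tumors, and *Myh11* and *Cnn1* by tumor, were named after their values were seen. *Mrtfa* and *Mrtfb* were matched by older symbols. Python 3.11.15, pandas 2.3.3, numpy 2.4.6 and matplotlib 3.10.9 were used.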

Additional observations from a re-analysis of the deposited data

Results flagged for a closer look

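Within each group of 4 M/D-driven tumors, a value was singled out when its gap to the nearest other tumor, divided by the range of the group, was above Dixon's critical value for 4 values. *Acta2* in untreated tumor 2 met this with a normalized count of 181216 (gap over range 0.888), *Pdgfrb* in NAM-treated tumor 3 with 5304 (0.849), and *Lum* in untreated tumor 4 with 8602 (0.875). These were 3 of 40 checks, on normalized counts and on log2 values, and chance alone singles out about 1 in 20. None of the 3 was singled out on log2 values.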

How the results depend on the processing

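Of the values of single genes under the alternatives, 805 kept direction and call, 62 turned in direction, 26 gained a call and 37 lost it. The cause of these moves was not tested, and depth limits the low genes of the lists more than the 10 genes, whose lowest normalized count in any tumor was 136 (*Fap*). Values below are log2 fold changes unless given as counts of called genes.

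With NAM in M/D-driven tumors, *Tagln* turned to 0.44 by DESeq2, 0.42 by edgeR, 0.46 by the ratio of means and 0.073 with the length and GC trend removed, and *Postn* to 0.29, 0.27 and 0.30 by the first 3 of these and to 0.025 by upper-quartile scaling. In AT3 tumors, *Dcn* turned to 0.016 by TMM, *S100a4* to 0.46 with the trend removed, and *Acta2*, *Fap* and *Thy1* to −0.16, −0.084 and −0.088 by upper-quartile scaling, under which 1 gene (*Tagln*) was called lower. In the interaction, *Acta2* turned to 1.03 by DESeq2, 1.00 by edgeR and 0.33 by upper-quartile scaling, *Lum* to 0.15 and 0.078 by the first pair, and *S100a4* to −0.032 with the trend removed. Between models, 5 of the 10 genes were called higher by upper-quartile scaling and 4 in NAM-treated tumors, where *Postn* had −0.21 and −0.12. *Fap* gained its call by DESeq2 (1.09), TMM (1.07), edgeR (1.18) and without a filter (0.96), as did *Fap* (1.36) and *Postn* (0.69) with values as deposited. Among NAM-treated tumors, 2 genes were called with the trend removed and 2 to 5 on leaving out single tumors, where *Postn* ran from −0.49 to 0.60. Over all genes, 1995 of 18149 were called higher with the trend removed and 2312 to 4273 on leaving out single tumors.

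Leaving out single tumors gave 0 to 1 genes called higher in M/D-driven tumors, beside 395 to 1201 of 21408 to 21837 genes tested. In AT3 tumors it gave 1 to 2 higher and 0 to 2 lower, beside 904 to 3459 and 714 to 3310 of 18933 to 19665. The 2 lower came without untreated tumor 2, where 3310 of 18933 genes were lower. In the interaction, leaving out single tumors gave 0 to 2 lower, beside 965 to 2461 of 22454 to 23024. With NAM in M/D-driven tumors the values then ran from −0.98 to 1.21 for *Acta2*, −0.67 to 0.042 for *Fap*, −0.056 to 0.50 for *Pdgfra*, −0.16 to 0.33 for *Pdgfrb*, −0.13 to 0.55 for *S100a4*, −0.84 to 0.76 for *Tagln*, −0.46 to 0.64 for *Postn*, −0.25 to 0.67 for *Dcn* and −0.64 to 0.71 for *Lum*. In AT3 tumors they ran from −0.061 to 0.21 for *Acta2*, −0.028 to 0.31 for *Fap* and −0.19 to 0.067 for *Dcn*. Interaction terms ran from −1.03 to 1.16 for *Acta2*, −0.27 to 1.33 for *Tagln*, −0.83 to 0.28 for *Postn*, −0.23 to 0.69 for *Dcn* and −1.15 to 0.20 for *Lum*.

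Between untreated and NAM-treated tumors of the same replicate number, deviations had a mean correlation of −0.18 in M/D-driven and 0.07 in AT3 tumors. For unlike numbers, the means were 0.05 and −0.04. In AT3 tumors the ranges overlapped (−0.16 to 0.26 and −0.32 to 0.28), so a pairing by number was not settled there. With the replicate block, 1 gene (*Pdgfrb*) was called lower in the interaction, beside 1602 of 22710 genes tested. With block and trend removal together, *Tagln* had 0.073 in M/D-driven and *S100a4* 0.46 in AT3 tumors. In that AT3 fit, *Lum* had 0.88 (limma adjusted p = 0.044), and 717 of 16444 genes tested had an adjusted p of at most 0.05. Genes called higher and lower among all genes went from 658 and 692 to 479 and 522 with the block in M/D-driven tumors, and from 2358 and 2100 to 2702 and 2380 in AT3 tumors.

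Over all genes, upper-quartile scaling put the median at 0.12 in M/D-driven tumors (889 genes higher, 556 lower), −0.25 in AT3 tumors (1459 and 3481), 0.35 for the interaction (3090 and 949, from 1582 and 1795) and −0.44 between models. TMM put it at 0.15 between models and called 1179 and 2293 genes in the interaction. In M/D-driven tumors, calls were 1287 and 805 by DESeq2, 992 and 645 by edgeR, 1219 and 961 with no filter, 312 and 547 with the filter at 50, 925 and 1207 with all tumors in 1 fit, and 447 and 586 with the trend removed. Trend removal left 1297 and 1306 in AT3 tumors and 1094 and 952 in the interaction, where DESeq2 called 2463 and 1767. Leaving out a tumor gave 395 to 1201 genes higher and 351 to 1511 lower in M/D-driven tumors, and 904 to 3459 and 714 to 3310 in AT3 tumors.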
